A study of Mus musculus with 6 samples.

Results

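The genes described here are 10 that encode selenoproteins: the glutathione peroxidases Gpx1, Gpx3 and Gpx4, the thioredoxin reductases Txnrd1 and Txnrd2, and Selenop, Selenow, Selenot, Selenom and Selenon. They are named members of the family, selected on a comparison of cold with control fat in the same libraries, so their cold and control values are given as a description and carry no p-value. The GENCODE M21 annotation marks a selenocysteine codon in 24 genes, of which these are 10, out of 54356 genes with a row in the joined data. Polyadenylated RNA was sequenced from epididymal white adipose tissue, the visceral fat pad along the epididymis, of 6 wild-type male C57BL/6N mice aged 20 weeks. The cold group has 3 mice (cold 7, cold 12 and cold 16) and the ctrl group has 3 (ctrl 5, ctrl 6 and ctrl 10), where the number is the mouse identifier, 1 library per mouse. The protocol text, shared by all 6 samples, describes 24 h of single housing at 4 °C before the fat was taken, and a general housing temperature of 22 to 24 °C. The sources used here do not say how the ctrl mice were housed during those 24 h, nor how much selenium the diet held.

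Selenoproteins carry selenocysteine, an amino acid in which selenium takes the place of the sulphur of cysteine, usually at the catalytic site. It is written in the messenger RNA as UGA, which elsewhere means stop. A hairpin in the 3′ untranslated region, its binding protein and a dedicated elongation factor let the ribosome read UGA as selenocysteine. When selenium is short, some of these messengers, with Gpx1 and Selenow the best known cases in rodents, are lost by nonsense-mediated decay, which recognises a stop codon upstream of an exon junction, while Gpx4 messenger is largely spared. In fat these proteins remove hydrogen peroxide and lipid hydroperoxides, keep thioredoxin reduced, serve protein folding in the endoplasmic reticulum and carry selenium between tissues.

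The codon itself is shown first, because it is what makes these genes 1 family. Each line is the coding strand of the leading selenocysteine-coding transcript in GENCODE M21 (build GRCm38), 5′ to 3′, with 15 bases on each side where the reading frame allows, and with the named selenocysteine codon in capitals. In the second Selenop line the lower-case tga before the capitals is also a selenocysteine codon, number 9 of the 10, at residue 375.
Gpx1, chr9:108339451-108339453, plus strand: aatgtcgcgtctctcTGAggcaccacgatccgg
Gpx3, chr11:54907256-54907258, plus strand: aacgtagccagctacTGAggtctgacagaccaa
Gpx4, chr10:80054737-80054739, plus strand: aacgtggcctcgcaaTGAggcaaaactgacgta
Txnrd1, chr10:82896037-82896039, plus strand: ctccagtctggctgcTGAggttaa
Txnrd2, chr16:18477772-18477774, plus strand: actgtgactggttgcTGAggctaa
Selenop, the first of 10 codons, chr15:3274848-3274850, plus strand: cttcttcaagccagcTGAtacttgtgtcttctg
Selenop, the last of 10 codons, chr15:3279696-3279698, plus strand: accaggaagtgaaaaTGAcattcaaactaa
Selenow, chr7:15920464-15920466, minus strand: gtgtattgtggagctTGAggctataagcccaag
Selenot, chr3:58585238-58585240, plus strand: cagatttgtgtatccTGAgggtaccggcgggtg
Selenom, chr11:3516273-3516275, plus strand: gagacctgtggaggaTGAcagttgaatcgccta
Selenon, chr4:134542338-134542340, minus strand: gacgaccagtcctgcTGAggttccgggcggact

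The place of the codon differed among the genes. In both thioredoxin reductases it was the last residue but 1 of the protein, residue 498 of 499 in Txnrd1 and 526 of 527 in Txnrd2, so the line ends with the ordinary stop codon taa. In Selenow it came early, at residue 13 of 88, and in Gpx1 at residue 47 of 201, in Gpx3 at 73 of 226 and in Gpx4 at 73 of 197. Selenot had it at residue 49 of 195, Selenom at 48 of 145 and Selenon at 428 of 557. Selenop, the selenium carrier, had its first at residue 59 and its last at residue 377 of 380. Outside the codon itself, 17 of 30 bases were identical between the lines of the peroxidases Gpx3 and Gpx4, 16 between Gpx1 and Gpx4 and 13 between Gpx1 and Gpx3. The other 25 pairs of lines of that length, taken with the first Selenop line, shared 5 to 15 bases, with a median of 8, so Gpx1 and Gpx3 lie within their range. The 2 reductases shared 13 of 21 bases outside the codon. The base after the first codon was G in 8 of the 10 genes, in 12 of all 24, and after 35.4% of 11611 ordinary TGA stop codons, counted once per gene.

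The codon also lay at different distances from the last exon junction, the feature that nonsense-mediated decay reads. In the transcripts shown it preceded that junction by 470 bases in Selenot, 342 in Gpx4, 243 in Selenow, 240 in Gpx3, 216 in Selenon, 135 in Selenom, 105 in Gpx1 and 83 in Txnrd2. The first codon of Selenop preceded it by 357 bases, and the later ones lie in the last exon. The codon of Txnrd1 lies in the last exon too. In Txnrd2, Selenot and Selenow the ordinary stop codon also precedes the last junction. A place before the junction is thus shared by both codons in these genes, while the distance to it can differ. In Txnrd2, with the selenocysteine at residue 526 of 527, both codons lie at nearly the same distance. In Selenow (residue 13 of 88) and Selenot (residue 49 of 195) the ordinary stop lies far closer to the junction than the selenocysteine codon. Decay itself was not measured.

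The libraries held between 22903050 and 28608052 estimated counts in the cold group and between 19735167 and 24176464 in the ctrl group. The tissue label was checked against 5 adipocyte markers, which were abundant in all 6 libraries, with sums of 32369 to 35588 CPM in cold and 29625 to 33525 CPM in ctrl (CPM are counts scaled to library size, here by the TMM method). None of the 5 was called by edgeR, although Fabp4 and Plin1 had an unadjusted p under 0.05 and groups that did not overlap. Fabp4, a fatty acid binding protein gene, had 14867 ± 1325 CPM in cold and 11938 ± 1077 CPM in ctrl, and Plin1, of the lipid droplet coat, had 2881 ± 188 CPM in cold and 3375 ± 142 CPM in ctrl (SD, n = 3 each). Adipoq, the adiponectin gene, had 2073 to 2196 CPM in cold libraries and 2108 to 2384 CPM in ctrl libraries. For some other cell types the summed marker genes did not overlap between the groups, while those of macrophages and skeletal muscle did. The sum over 9 motile cilium genes was 55.7, 172 and 143 CPM in cold 7, cold 12 and cold 16, against 25.2, 6.27 and 3.55 CPM in ctrl 5, ctrl 6 and ctrl 10. Of those 9 genes, 4 passed the test as higher in cold and all 9 had groups that did not overlap. The sum over 8 epididymal duct genes was 16.8 to 151 CPM in cold and 0.667 to 2.85 CPM in ctrl, with Lcn9 at 0 in all libraries and Gpx5, a peroxidase gene of the epididymis, at 0 in the cold libraries and at most 0.0413 CPM in ctrl. Crisp1 reached 112 CPM in cold 7 and at most 0.257 CPM in the other libraries. Adam7 likewise had 29.6 CPM in cold 7 and at most 1.19 CPM in the others. In cold 12 and cold 16 the sum was nearly all Cdh1, with 19.3 of 19.7 CPM and 15.4 of 16.8 CPM. Rnase10 averaged 0.182 CPM in cold and 0.360 CPM in ctrl. Spermatid genes (5 genes) summed to 2.90 to 37.6 CPM in cold and 0.0826 to 2.73 CPM in ctrl. Macrophage genes summed to 471 to 800 CPM in cold and 665 to 760 CPM in ctrl, endothelial genes to 970 to 1169 and 1210 to 1265 CPM, and skeletal muscle genes to 11.4 to 17.5 and 9.49 to 20.2 CPM. The part of these cells in the values below was not tested, and in whole tissue fewer cells of a type and less RNA per cell cannot be told apart.

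The 10 genes fell into a high and a low tier of TPM, an abundance that corrects for transcript length and depth. Gpx4, Gpx1, Gpx3, Selenop and Selenow each had 549 TPM or more in every library, and Selenot, Selenom, Txnrd1, Txnrd2 and Selenon each had 87.9 TPM or less. By mean ctrl TPM, the upper tier ranked 75, 82, 124, 132 and 142 among 17852 tested genes, in the order named. The lower tier ranked from 1879 (Selenot) to 4967 (Selenon). Together the 10 genes held 84.7% ± 0.669 of the TPM of all 24 selenoprotein genes in cold and 83.7% ± 1.40 in ctrl (SD, n = 3 each). The family sum was 5934 ± 118 TPM in cold and 6256 ± 200 TPM in ctrl.

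**Figure D1:**
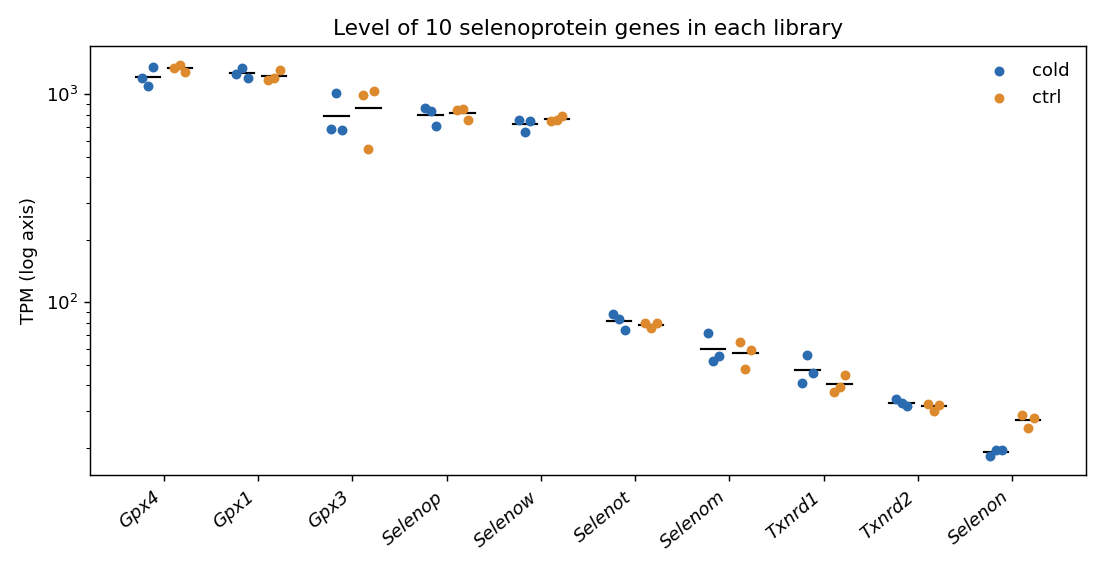
TPM on a log axis for the 10 genes, 1 point per library, cold libraries (blue) left of ctrl libraries (orange), with the mean of 3 as a black line. Selenon is the gene whose 3 cold points, between 18.3 and 19.5 TPM, all lie below its 3 ctrl points, between 24.9 and 28.8 TPM, and the Gpx3 points are the most scattered.

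Within the tiers the order was only partly resolved. Gpx4 and Gpx1 overlapped in both groups, and so did Selenop, Gpx3 and Selenow. Selenot lay above Selenom in all libraries. Selenom and Txnrd1 overlapped in cold but not in ctrl. Txnrd1 lay above Txnrd2, and Txnrd2 above Selenon, without overlap in either group.

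Among all genes tested with edgeR's quasi-likelihood test, 2.89% were called at an adjusted p under 0.05 (516 of 17852, 415 higher and 101 lower in cold). Of the 10 selenoprotein genes 1 was called, Selenon, lower in cold. Cold and ctrl CPM did not overlap in 23.8% of all tested genes, and in 2 of these 10, Selenon (cold lower) and Selenot (cold higher). Since the genes were selected on this contrast, nothing is read from either count. The median log2 fold change of the 10 was 0.02, against -0.01 over all genes tested, and 6 were positive and 4 negative.

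Of the peroxidases, Gpx4 reduces lipid hydroperoxides within membranes and protects cells against ferroptosis. Gpx4 (ENSMUSG00000075706.10, chr10:80047166-80056439) had 1197, 1092 and 1348 TPM in cold 7, cold 12 and cold 16, against 1337, 1378 and 1287 TPM in ctrl 5, ctrl 6 and ctrl 10. The groups overlapped, since cold 16 lay above 2 of the ctrl libraries. The log2 fold change, cold over ctrl, was -0.10 with a standard error (SE) of 0.10. Reads of Gpx4 can be shared with a near-identical processed copy, Gpx4-ps2, which was given 0 to 13 counts per library against 14460 to 20340 for Gpx4 in cold and 13088 to 16190 in ctrl.

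Gpx1 (ENSMUSG00000063856.7, chr9:108338903-108340343) encodes the abundant soluble peroxidase of the cytosol and mitochondria. It had 1254, 1340 and 1206 TPM in the 3 cold libraries and 1174, 1198 and 1313 TPM in the 3 ctrl libraries, in the order of mice given above. Means were 1267 ± 68.0 TPM in cold and 1228 ± 74.4 TPM in ctrl (SD, n = 3 each), with a log2 fold change of 0.08 (SE 0.08). The difference between the means was smaller than either SD. The ratio of Gpx4 to Gpx1 TPM was 0.963 ± 0.152 in cold and 1.09 ± 0.0951 in ctrl.

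Gpx3 (ENSMUSG00000018339.11, chr11:54902453-54910377) encodes the secreted peroxidase found in plasma. Its level was 679, 1013 and 676 TPM in cold 7, cold 12 and cold 16, against 998, 549 and 1038 TPM in ctrl 5, ctrl 6 and ctrl 10. Both groups thus held high and low mice, and the lowest and the highest library were both ctrl. The highest ctrl library had 1.87 times the CPM of the lowest, and the highest cold library 1.49 times. The SD of log2 CPM among ctrl mice was 0.49 for Gpx3 against a median of 0.09 over the 7873 genes with at least 20 CPM, and 1.08% of those genes had a larger one. The log2 fold change of -0.09 had an SE of 0.27, the widest of the 10. Gpx3 accordingly made up between 11.5 and 16.7% of the family TPM in cold and between 9.11 and 16.2% in ctrl.

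The thioredoxin reductases use NADPH to reduce thioredoxin, Txnrd1 in the cytosol and Txnrd2 in mitochondria. Txnrd1 (ENSMUSG00000020250.10, chr10:82833951-82897712) had 40.9, 55.8 and 45.8 TPM in cold and 37.0, 39.2 and 44.7 TPM in ctrl. Cold 12 and cold 16 lay above all ctrl libraries, and cold 7 lay among them. The log2 fold change was 0.25 (SE 0.13), the largest positive one of the 10, and 33.4% of all tested genes had a larger absolute one. Txnrd2 (ENSMUSG00000075704.16, chr16:18426384-18479073) had 34.3, 32.8 and 31.7 TPM in cold and 32.6, 30.1 and 32.3 TPM in ctrl, with a log2 fold change of 0.03 (SE 0.09). Txnrd1 had 1.45 ± 0.255 times the TPM of Txnrd2 in cold and 1.27 ± 0.127 times in ctrl.

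Selenop (ENSMUSG00000064373.12, chr15:3268547-3280508) encodes selenoprotein P, secreted mainly by liver, which carries selenium in plasma to receptors of the LRP family. It had 856, 831 and 706 TPM in cold and 843, 855 and 757 TPM in ctrl. The 6 values were interleaved, and the log2 fold change was 0.01 (SE 0.09). Of all tested genes, 96.2% had a larger absolute log2 fold change. Its exons share 439 bases with Ccdc152 on the opposite strand, a gene that had 152 to 187 counts in cold and 89 to 154 in ctrl, against 18335 or more for Selenop. The kit keeps strand, but the sources used here do not give the strand setting used in counting.

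Selenow, Selenot and Selenom encode small proteins with a thioredoxin-like fold, and Selenot and Selenom reside in the endoplasmic reticulum. Selenow (ENSMUSG00000041571.9, chr7:15917208-15922402) had 752, 661 and 748 TPM in cold and 747, 752 and 785 TPM in ctrl, with a log2 fold change of -0.05 (SE 0.09). Cold 12 was the low library and the other 5 lay close together. Selenot (ENSMUSG00000075700.9, chr3:58576636-58593133) had 150, 144 and 143 CPM in cold and 137, 135 and 139 CPM in ctrl. Its CPM did not overlap, yet its TPM did, with 87.9, 83.6 and 73.8 TPM in cold and 79.3, 75.7 and 79.6 TPM in ctrl. Selenot was also the steadiest of the 10: the SD of log2 CPM among ctrl mice was 0.02, and 96.6% of genes with at least 20 CPM had a larger one. The log2 fold change of Selenot was 0.09 (SE 0.06). Selenom (ENSMUSG00000075702.9, chr11:3514684-3517351) had 71.2, 52.5 and 55.4 TPM in cold and 64.8, 47.9 and 59.2 TPM in ctrl. Cold 7 was the highest and ctrl 6 the lowest of the 6 Selenom values, with the other libraries between them, and the log2 fold change was 0.08 (SE 0.15).

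Selenon (ENSMUSG00000050989.9, chr4:134537892-134552166) encodes selenoprotein N of the endoplasmic reticulum membrane, which is known for calcium handling in muscle and for the human muscle disease caused by its loss. It had 41.0, 44.6 and 44.8 CPM in cold 7, cold 12 and cold 16, against 63.8, 56.6 and 62.1 CPM in ctrl 5, ctrl 6 and ctrl 10. Every cold library lay below every ctrl library, with means of 43.5 ± 2.15 CPM in cold and 60.8 ± 3.76 CPM in ctrl (SD, n = 3 each). The log2 fold change was -0.48 (SE 0.08), and 15.8% of all tested genes had a larger absolute one. The value ran from -0.53 to -0.40 over the 11 alternative settings. The call was lost without cold 12, without cold 16, without ctrl 6, without ctrl 10 and without ctrl 5 and cold 7 together. Over all genes, 0 were called without cold 12, ctrl 6 or ctrl 10 and 3 without cold 16. Without ctrl 5 and cold 7 together 1230 were called. Because Selenon was selected on this contrast, neither the call nor its loss is read as a test result. Skeletal muscle genes, whose sums are given above, overlapped between the groups. Endothelial gene sums were lower in every cold library than in every ctrl library, as Selenon was. All 5 endothelial genes had a negative log2 fold change, from -0.37 (Tie1) to -0.03 (Pecam1), and none was called. Groups did not overlap in 2 of the 5, Cdh5 and Tie1. The part of endothelial cells in the Selenon value was not tested.

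**Figure D2:**
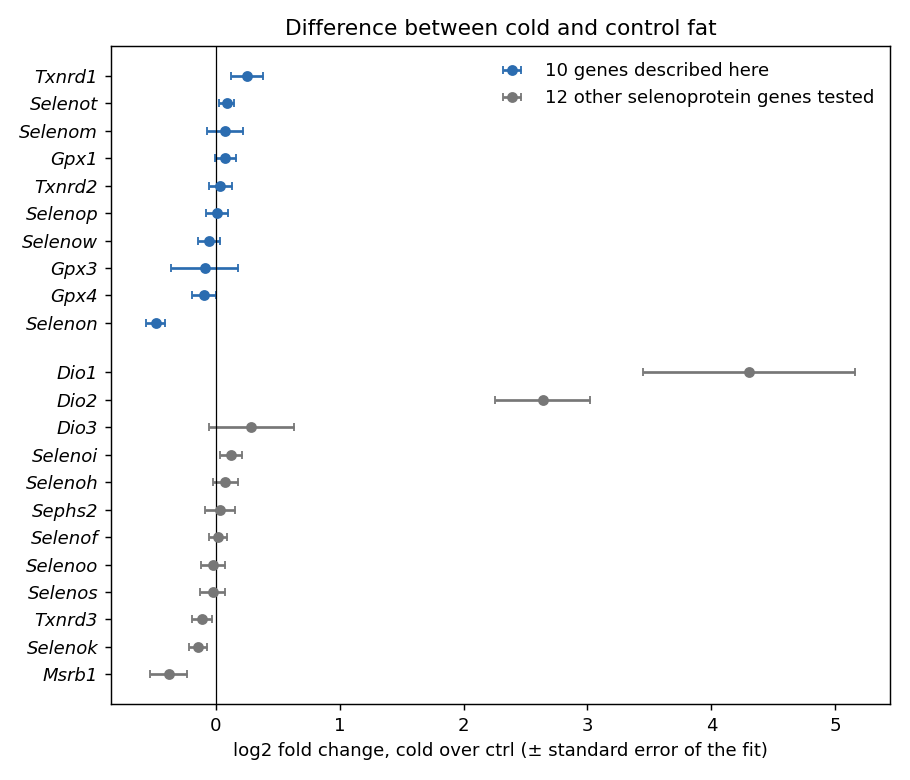
Log2 fold change, cold over ctrl, with the standard error of the edgeR fit as bars, for the 10 genes described here (blue, above) and the 12 other selenoprotein genes tested (grey, below). Selenon lies at -0.48 and the other 9 blue genes between -0.10 and 0.25, while Dio1 at 4.30 and Dio2 at 2.64 lie to the far right.

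The transcript makeup was examined next, since only some annotated transcripts have the selenocysteine codon in their reading frame. The 10 genes have 53 annotated transcripts, of which 25 have the codon in their annotated reading frame and 31 were tested. Among all transcripts 0% were called (0 of 42984 by edgeR, with 3503 at an unadjusted p under 0.05 and a smallest adjusted p of 0.193; 8 were called without the low-count filter). No transcript of the 10 genes was called. Shares below are of the gene's TPM, and they rest on Salmon's division of reads among transcripts that overlap.

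Selenow has 1 annotated transcript. In Gpx3, Selenot, Selenom and Selenon the transcript numbered 201 held 93.3% or more of TPM in every library. Gpx1 was the most divided. Gpx1-201, whose reading frame includes the selenocysteine codon, held 43.0, 35.2 and 35.3% in cold 7, cold 12 and cold 16, against 34.6, 34.3 and 35.7% in ctrl 5, ctrl 6 and ctrl 10. Gpx1-202, whose annotated reading frame does not include it, held 45.2% ± 3.24 in cold and 47.1% ± 2.45 in ctrl (SD, n = 3 each), and Gpx1-204 held 16.8% ± 1.91 and 17.8% ± 2.88. The exons of all 4 Gpx1 transcripts contain the codon, so 100% of Gpx1 TPM carries it in the RNA. By estimated counts rather than TPM the order turned, with 49.5% for Gpx1-201 and 39.1% for Gpx1-202 in cold and 46.5% and 41.3% in ctrl, since Gpx1-202 is shorter (787 against 1072 bases).

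Gpx4 was led by Gpx4-202, with 73.4% ± 2.44 in cold and 70.4% ± 2.87 in ctrl, and Gpx4-207, predicted to give a shorter protein of 157 residues, held 19.5% ± 2.77 in cold and 23.6% ± 1.64 in ctrl. Both include the codon, and the groups overlapped in both. Selenop was divided between Selenop-203 and Selenop-201, which each encode 380 residues with 10 selenocysteines. Selenop-203 held 53.5, 59.6 and 57.1% in cold and 47.0, 54.5 and 51.7% in ctrl. Cold 12 and cold 16 were above all ctrl libraries and cold 7 was below ctrl 6.

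In Txnrd1 the transcripts Txnrd1-201, Txnrd1-208 and Txnrd1-206 all end in the same selenocysteine-containing tail and encode 499 residues. Txnrd1-201 held 58.4% ± 1.83 in cold and 55.8% ± 2.88 in ctrl. Txnrd1-206 held 10.7, 13.5 and 20.7% in the cold libraries and 20.2, 20.4 and 21.5% in the ctrl libraries, so that 2 cold mice were low and the third lay among the ctrl mice. In Txnrd2 the full-length Txnrd2-203 held 55.9, 52.9 and 51.8% in cold and 67.8, 67.2 and 47.0% in ctrl. Txnrd2-206, a transcript of 532 bases without the codon, held 34.6% ± 4.19 in cold and 30.2% ± 7.90 in ctrl of TPM, but 9.94% and 8.65% of estimated counts. Txnrd2-216, which includes the codon, held 7.34, 4.62 and 11.1% in cold and 3.39, 0 and 0% in ctrl, on 45.6 to 125 estimated counts in cold and 0 to 30.6 in ctrl. Its groups did not overlap, but its log2 fold change of 2.81 had an SE of 1.55 and it was not called. The share of TPM from transcripts with the codon in frame was 64.2% ± 4.17 in cold and 65.3% ± 11.2 in ctrl for Txnrd2, and 37.8% ± 4.46 and 34.9% ± 0.740 for Gpx1.

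**Figure D3:**
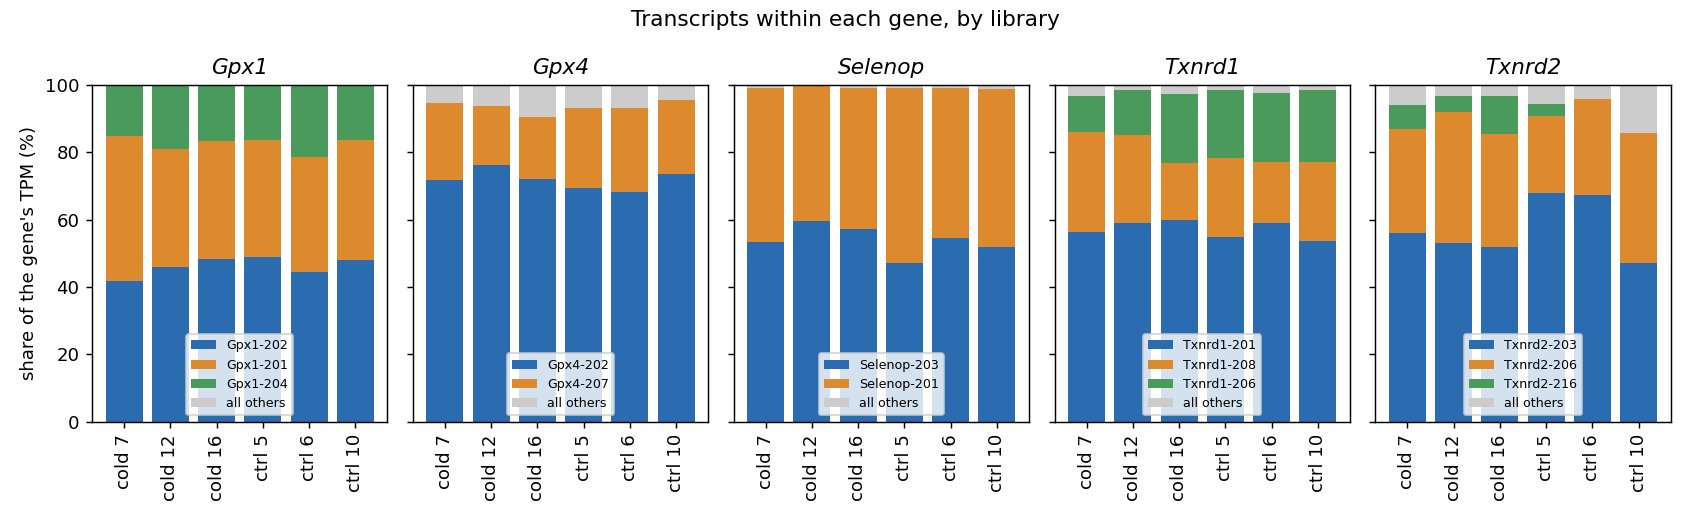
Share of each gene's TPM (%) by annotated transcript for the 5 genes with more than 1 transcript at 5% or more, 1 bar per library with the 3 cold libraries left of the 3 ctrl libraries, and grey for all other transcripts. Gpx1 is divided into 3 in every library, and Txnrd2 varies most among ctrl mice, with Txnrd2-203 between 47.0 and 67.8%.

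The rest of the selenium pathway was covered by 8 lists with 67 genes, of which 63 could be tested. With edgeR's quasi-likelihood test adjusted over all genes, 2 were higher in cold and 0 were lower, which is 3.17% against 2.89% of all genes. An unadjusted p under 0.05 was found for 12, or 19.0%, against 17.6% of all genes (3147 of 17852). DESeq2 called 5 of them (Dio1, Dio2, Lrp1, Lrp2 and Slc3a2). The median log2 fold change of the 63 was 0.04, against -0.01 over all genes, and the groups did not overlap in 14 of them (22.2%, against 23.8% of all genes). These shares lie near those of all genes.

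Both called genes were deiodinases, selenoenzymes that act on thyroid hormone, among the 12 tested of 14 other selenoprotein genes. Dio2, which converts T4 to active T3 in brown fat, had 1.36, 2.71 and 2.79 CPM in cold 7, cold 12 and cold 16, against 0.330, 0.358 and 0.411 CPM in ctrl 5, ctrl 6 and ctrl 10. It was higher in all cold libraries, by 2.64 on the log2 scale (SE 0.38, adjusted p = 0.0252 by edgeR). Dio1, which makes T3 mainly in liver and kidney, had 17, 92 and 60 counts in cold and 5, 2 and 0 counts in ctrl, or 2.16 ± 1.45 CPM in cold and 0.0986 ± 0.104 CPM in ctrl. Its log2 fold change was 4.30 (SE 0.86, adjusted p = 0.0479 by edgeR). Both stayed far under the 10 genes, since Dio1 reached at most 3.44 TPM in any library and Dio2 averaged 0.588 TPM in cold, where Selenon, the lowest of the 10, averaged 19.1 TPM. Without cold 12, cold 16, ctrl 6 or ctrl 10 neither was called. Over all genes, 0 were called without cold 12, ctrl 6 or ctrl 10 and 3 without cold 16. Dio1 was also not called without ctrl 5, without the low-count filter or with a transcript length offset. Over all alternatives, DESeq2 included, the adjusted p ran from 6.65e-05 to 0.171 for Dio1 and from 6.87e-05 to 0.129 for Dio2. Without ctrl 5 and cold 7 together, the adjusted p by edgeR was 0.00314 for Dio1 and 0.00280 for Dio2. Dio1 ordered the 6 mice as the sum of motile cilium genes did. Having cold 7 as the lowest cold library and ctrl 5 as the highest ctrl library was found in 14.8% of all tested genes. Dio1, Lrp2 and Selenon were among them. In Dio1 and Lrp2, higher in cold, cold 7 and ctrl 5 were thereby the nearest libraries of the 2 groups. In Selenon, lower in cold, they were the farthest apart. The part of ciliated cells in the values of these genes was not tested. The other 10 tested ran from -0.38 (Msrb1, a methionine sulfoxide reductase, SE 0.15, adjusted p = 0.242 by edgeR) to 0.29 (Dio3, SE 0.34, adjusted p = 0.744). Msrb1 and Dio3 were picked out after their values were seen. Gpx2 and Selenov were too low to test.

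None of the 12 genes that make selenocysteine and insert it was called, and their median log2 fold change was 0.02. Those with the smallest p were Ncl, which encodes nucleolin, an RNA-binding protein that has been linked to selenoprotein messengers, at 0.23 (SE 0.11, adjusted p = 0.356 by edgeR), and Rpl30, a ribosomal protein that binds the hairpin, at 0.09 (SE 0.07, adjusted p = 0.530). The dedicated factors stood at low but measurable levels, with Secisbp2, the hairpin-binding protein, at 11.4 TPM in cold and 12.0 TPM in ctrl and Eefsec, the elongation factor, at 8.04 and 7.79 TPM. Secisbp2 and Eefsec were picked out for their role after values were seen.

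Selenium delivery and recycling had 4 tested genes, none called. Lrp2, or megalin, an endocytic receptor that takes up Selenop in kidney, had 26.6, 67.9 and 56.3 CPM in cold 7, cold 12 and cold 16, against 11.1, 2.50 and 5.44 CPM in ctrl 5, ctrl 6 and ctrl 10. The groups did not overlap, and Lrp2 differed by 2.97 on the log2 scale (SE 0.63, adjusted p = 0.0822 by edgeR). Lrp2 passed the threshold without ctrl 5, without ctrl 5 and cold 7, and with DESeq2. Lrp1, the broadly expressed relative of Lrp2, had 739 ± 124 CPM in cold and 998 ± 140 CPM in ctrl, or -0.43 on the log2 scale (SE 0.15, adjusted p = 0.172 by edgeR).

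**Figure D4:**
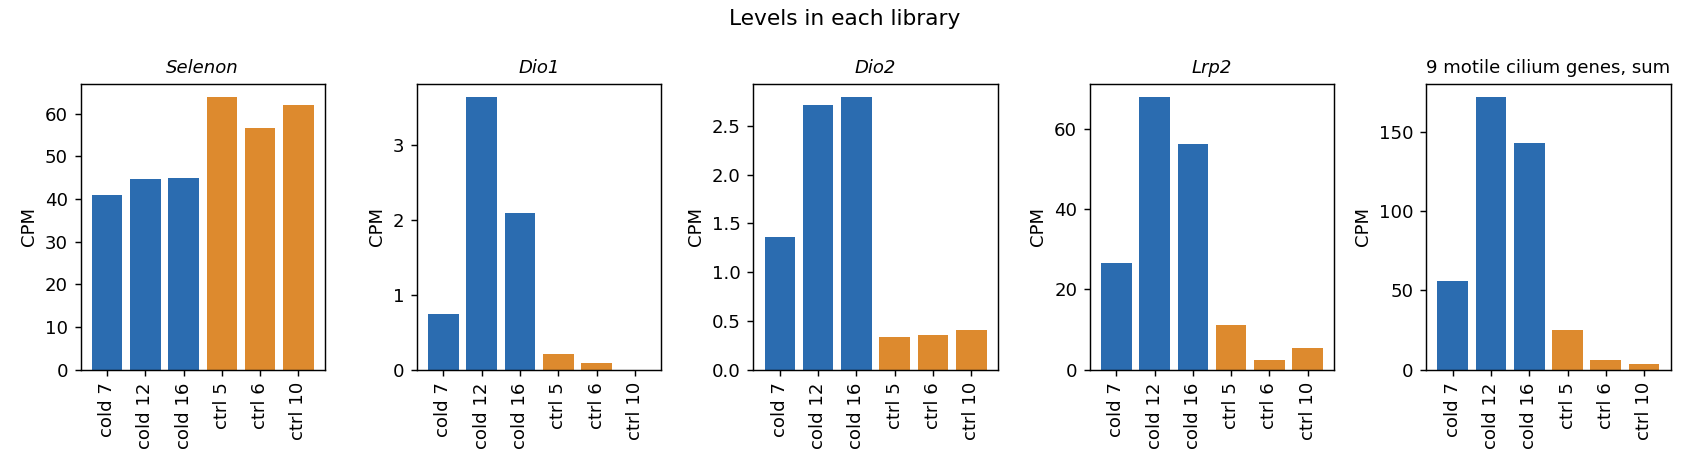
CPM of Selenon, Dio1, Dio2 and Lrp2 and the summed CPM of 9 motile cilium genes in each library, cold libraries (blue) left of ctrl libraries (orange), each panel from 0. Cold 7 is the lowest cold library in all 5 panels, and ctrl 5 is the highest ctrl library in the panels of Selenon, Dio1, Lrp2 and the cilium sum, but not in that of Dio2.

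The partner systems held no called gene either. Of 8 glutathione genes, 7 had a positive log2 fold change and the median was 0.26. Slc3a2, the heavy chain of the cystine transporter, had 182 ± 4.17 CPM in cold and 151 ± 8.03 CPM in ctrl, or 0.27 on the log2 scale (SE 0.07, adjusted p = 0.0802 by edgeR), and Glrx, glutaredoxin, had 12.5 ± 1.15 and 9.25 ± 1.16 CPM, or 0.44 on that scale (SE 0.14, adjusted p = 0.135). For neither did the groups overlap. Among 10 thioredoxin and peroxiredoxin genes, Prdx6 stood at 0.26 (SE 0.14, adjusted p = 0.400 by edgeR) and Txnip, the inhibitor of thioredoxin, at -0.39 (SE 0.26, adjusted p = 0.525). The 5 tested cysteine homologues, which use cysteine where selenoproteins use selenocysteine, gave -0.27 for Gpx8 (SE 0.18, adjusted p = 0.521 by edgeR) and -0.13 for Msrb3 (SE 0.09, adjusted p = 0.525). Gpx5 and Gpx6 were too low to test.

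The stress regulator NRF2 and its partners (4 genes) gave -0.10 for Nfe2l2, which encodes NRF2 (SE 0.06, adjusted p = 0.489 by edgeR), and 0.23 for its target Nqo1 (SE 0.18, adjusted p = 0.580). Of 8 genes of lipid peroxidation and iron, the transferrin receptor gene Tfrc stood at 0.40 (SE 0.13, adjusted p = 0.143 by edgeR) and Cisd1, of the outer mitochondrial membrane, at 0.27 (SE 0.10, adjusted p = 0.192). These values sit beside Gpx4, the selenoprotein that acts on lipid hydroperoxides, at -0.10.

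For each of the 10 genes, the 1 other gene with the most similar course over the 6 libraries was found among 11137 genes, by the root mean square difference of log2 CPM after each gene's mean was subtracted. For Selenot it was Hmgb1, at 0.0149. For Gpx1 it was Csnk1a1 (0.0178), for Selenon Mknk2 (0.0203), for Gpx4 Gm2a (0.0226), for Selenop Thap4 (0.0252), for Selenow Rcan1 (0.0269), for Txnrd2 Irak1bp1 (0.0319), for Selenom Ptgs1 (0.0368) and for Txnrd1 Slc25a22 (0.0494). Gpx3 had the least similar nearest gene, Grik5 at 0.0758, and also the widest range over the libraries, 0.90 on the log2 scale. Mknk2 had a log2 fold change of -0.45, against -0.48 for Selenon. With 6 libraries and this many candidates a close match is a description only.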

How the data were processed

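Libraries were strand-specific, paired-end and 50 nt, per the labels' protocols. The submitters' processing notes name bcl2fastq, cutadapt, Salmon and build GRCm38, while versions, settings and strand options were not given in the sources used here. Per transcript, the authors deposited estimated counts (not whole numbers) and TPM for 140658 transcripts, per the file headers. Of these 140137 were joined to GENCODE M21 (GRCm38, coordinates from 1), and the other 521, with 0.124 to 0.394% of a library's counts, were left out. Counts and TPM were summed per gene, counts were rounded, and only counts were tested.

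Gene counts were compared with edgeR 4.0.16 under R 4.3.3 (filterByExpr with a minimum count of 10 and total of 15, TMM, robust quasi-likelihood fit, two-sided, no covariate, Benjamini-Hochberg over 17852 genes, called under 0.05). Transcripts were tested in the same way. CPM are TMM-scaled and errors are SDs of 3 mice unless given as SE. An SE is taken from the F statistic. The steps were tested on simulated data. P-values weigh the difference between the groups against the spread between these mice, and counts carry no error for Salmon's division of reads.

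The genes and lists were chosen with earlier results of these data known. Named were all 10 genes, in each pathway list the called genes or otherwise the 2 with the smallest p, transcripts with at least 5% of the gene's TPM, and each gene's nearest pattern among genes of at least 5 CPM. Pairs of libraries within a group differed by more than sampling noise, with a chi-square of at least 11.6 for each degree of freedom. They were therefore not treated as repeats of 1 library. That value is no check of quality, and it was highest for cold 7 and cold 16, at 32.7. All 6 libraries were kept. Alternatives were RLE scaling, no low-count filter, a length offset, DESeq2 1.42.0 and leaving out each library; leaving out ctrl 5 and cold 7 together was added after seeing the data. Near-identical copies were sought among M21 transcripts at 95% identity or more over at least 200 bases.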

Additional observations from a re-analysis of the deposited data

How the results depend on the processing

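Against 516 genes called with edgeR, 924 were called without the low-count filter, 1430 with DESeq2, 0 to 1090 with 1 library left out (0 without cold 12, ctrl 6 or ctrl 10, 3 without cold 16) and 1230 without ctrl 5 and cold 7. Of the transcripts, 8 were called without the low-count filter and 0 with every library or with 1 left out. Against 2 pathway genes called, 1 was called without the low-count filter or with a length offset, 5 with DESeq2, 0 to 2 with 1 library left out and 3 (Dio1, Dio2 and Lrp2) without ctrl 5 and cold 7. Of the 10 selenoprotein genes, Selenon was called in 6 of 11 alternatives. That count is a description only, since the genes were selected on the contrast of cold with ctrl. The sign held in all 11 for Selenon, Selenot, Gpx1, Gpx4 and Txnrd1, and turned in 4 for Selenop and Gpx3, in 2 for Selenom and Txnrd2 and in 1 for Selenow, which stood at 0.04 without cold 12. Selenom stood at -0.07 without cold 7, and Gpx3 ran from -0.31 to 0.12. No paired analysis was possible because the mouse numbers differ between the groups. With 3 mice a group, the SEs leave log2 changes of the size fitted for most of these genes undetectable, and no label gives a batch. Dio1 and Dio2 rest on few reads.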
